A study of Mus musculus with 6 samples.

Results

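The basement membrane is the sheet of extracellular matrix that surrounds each muscle fibre, and its core is built from laminins, collagen IV, nidogens and the proteoglycan perlecan. The 10 genes described here encode parts of that core: the laminin alpha chains Lama2, Lama4 and Lama5, the beta chain Lamb1, the gamma chain Lamc1, the collagen IV chains Col4a1 and Col4a2, the nidogens Nid1 and Nid2, and Hspg2, the gene of perlecan. They were chosen by name among the 37991 genes of the count tables. All 10 were found and all 10 passed the filter on low counts, as did 16472 genes in all. A laminin is a trimer of an alpha, a beta and a gamma chain, and many laminins polymerise at the cell surface and bind integrins and dystroglycan. Collagen IV forms a separate, covalently linked network, and nidogen and perlecan bind to both. The alpha 2 chain is the main laminin alpha chain around mature muscle fibres, and loss of its gene causes a congenital muscular dystrophy.

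The libraries were made from polyadenylated cytoplasmic RNA of C2C12, an immortalised mouse myoblast line (strain C3H) that fuses into myotubes when serum is lowered. All cells had been transduced with a short hairpin vector. Control cells carry the one labelled LV sh-Luc. Knockdown cells carry the one labelled LV sh-Kap1, directed at KAP1, a chromatin scaffold protein encoded by Trim28. Each was sampled while proliferating in medium with 10% serum (MB, 2 libraries each) and after 48 hours in medium with 2% horse serum (MT, 1 library each). Nothing in the labels says whether the MB replicates were separate cultures, so p-values measure the spread between these libraries, which may be technical. Libraries held 36247530 to 49839994 counts on genes. Trim28 was at 596 and 428 CPM (counts per 1000000 counts on genes, on the TMM scale of edgeR) in control MB, 150 and 102 in knockdown MB, 393 in control MT and 114 in knockdown MT, so that the 3 knockdown libraries lay below all 3 controls.

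Of the 10 basement membrane genes 9, all but Nid1, had their highest level of the 6 libraries in control MT cells. Across all genes tested, the MT control library was the highest in 24.4%. Together the 10 genes took 0.249% to 0.294% of the counts on genes in the 4 MB libraries, 0.532% in control MT and 0.299% in knockdown MT. After 48 hours the knockdown library had 5.32% (Lama4) to 56.9% (Nid2) of the control level for those 9 genes, and 99.0% for Nid1. The MT knockdown library lay within the range of the 4 MB libraries for Lama2, Lama4, Lama5, Col4a1, Col4a2 and Hspg2, that is, for 6 of 10 genes against 35% of all genes tested. It lay above all 4 for Lamb1 and Nid2 and below all 4 for Lamc1 and Nid1. In bulk RNA, fewer cells that express a gene and less of its RNA per cell cannot be told apart.

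**Figure D1:**
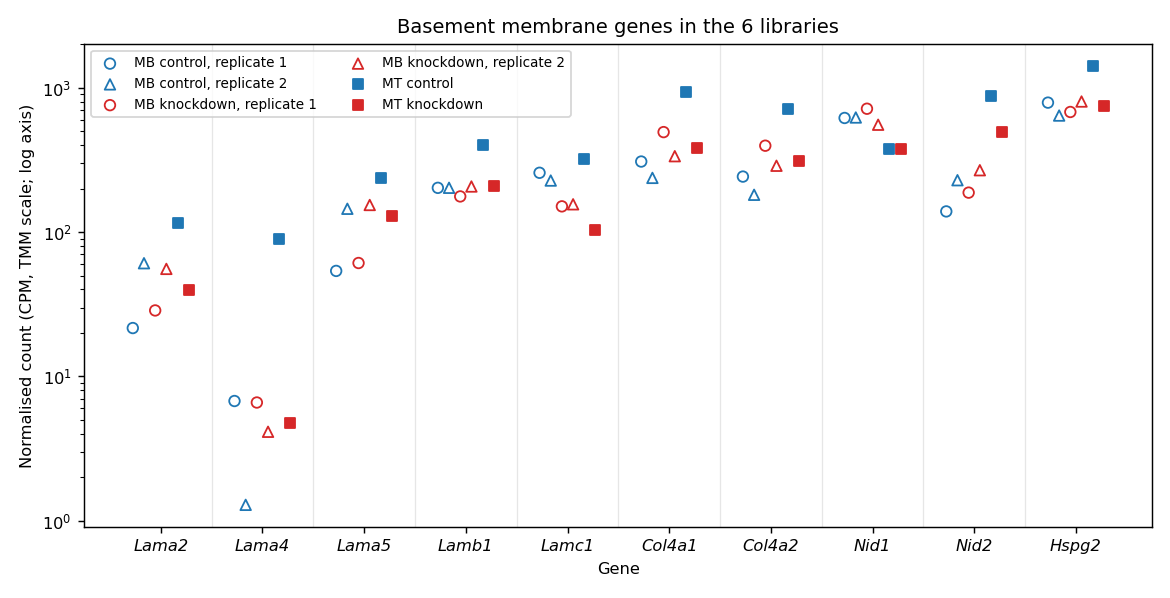
Normalised count (CPM on the TMM scale, log axis) of the 10 basement membrane genes, with 1 point per library: open circles and triangles are MB replicates 1 and 2, filled squares the single MT libraries, blue control and red knockdown. The blue square is the highest point for all genes but Nid1, where both squares, at 379 and 375 CPM, lie below the 4 MB points.

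The test on 1 mean per group left these differences without a call. edgeR's quasi-likelihood test with Benjamini-Hochberg adjustment over the 16472 genes called 0 genes in each of 5 contrasts, a background of 0% in each. At an unadjusted p under 0.05 it counted 2 of the 10 basement membrane genes for the knockdown in MB (454 of all genes) and 6 for the knockdown in MT (1383). It counted 7 for MT against MB in control cells (4174), 3 for the same in knockdown cells (2512) and 6 for the difference between the knockdown effects (825). DESeq2 on the same groups called 0, 3, 6, 0 and 3 of the 10 in that order. Of all genes it called 52, 368, 2384, 843 and 166.

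The names of the replicate 1 files and of the MT files share a mark that is missing from those of replicate 2, and the replicates differed alike in both kinds of cell. Over the genes tested, the difference of replicate 2 from replicate 1 in control cells correlated with that in knockdown cells at r = 0.838, as a description across genes that are not independent. A second edgeR fit therefore held a term for this mark, a replicate block in which both MT libraries stand with replicate 1. It has 1 residual degree of freedom, and its estimated variation between libraries is 9.74% against 32.9% without the term. The words rose and fell are used of genes with an adjusted p under 0.05 in that fit, and adjusted p-values are from it unless the first fit is named. In it the MT groups, with 1 library each, are assumed to vary like the MB groups. Scaling by total counts in place of TMM shifts the median of all genes by 0.14 (log2) in the MT knockdown contrast and by 0.11 in the difference between knockdown effects.

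With the block, 8 of the 10 genes (all but Lama4 and Nid1) rose and 1 (Nid1) fell from MB to MT in control cells, against 22.3% and 22.6% of all genes tested. In knockdown cells 3 rose (Lama2, Lama5, Nid2) and 2 fell (Lamc1, Nid1), against 16.6% and 16.5%. Knockdown in MT gave no gene that rose and 8 that fell, again all but Lama4 and Nid1, against 9.09% and 11.2% of all genes. Knockdown in MB gave 2 that rose (Col4a1, Col4a2) and 1 that fell (Lamc1), against 2.5% and 1.34%. The knockdown effect in MT was lower than that in MB for the same 8 genes and higher for none, against 6.63% and 3.82% of all genes. These 8 differences ran from -0.85 (Lamb1) to -1.89 (Col4a2), and that of Hspg2 (-0.97, adjusted p = 0.0385) no longer passed with total count scaling. The median log2 change of the 10 genes in these contrasts was 1.55, -0.16, -1.07, 0.13 and -1.07 in the order given, beside -0.01, 0.02, 0.02, -0.01 and 0.02 over all genes tested. The differentiation and knockdown contrasts in MT share the MT control library, so its level enters both.

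**Figure D2:**
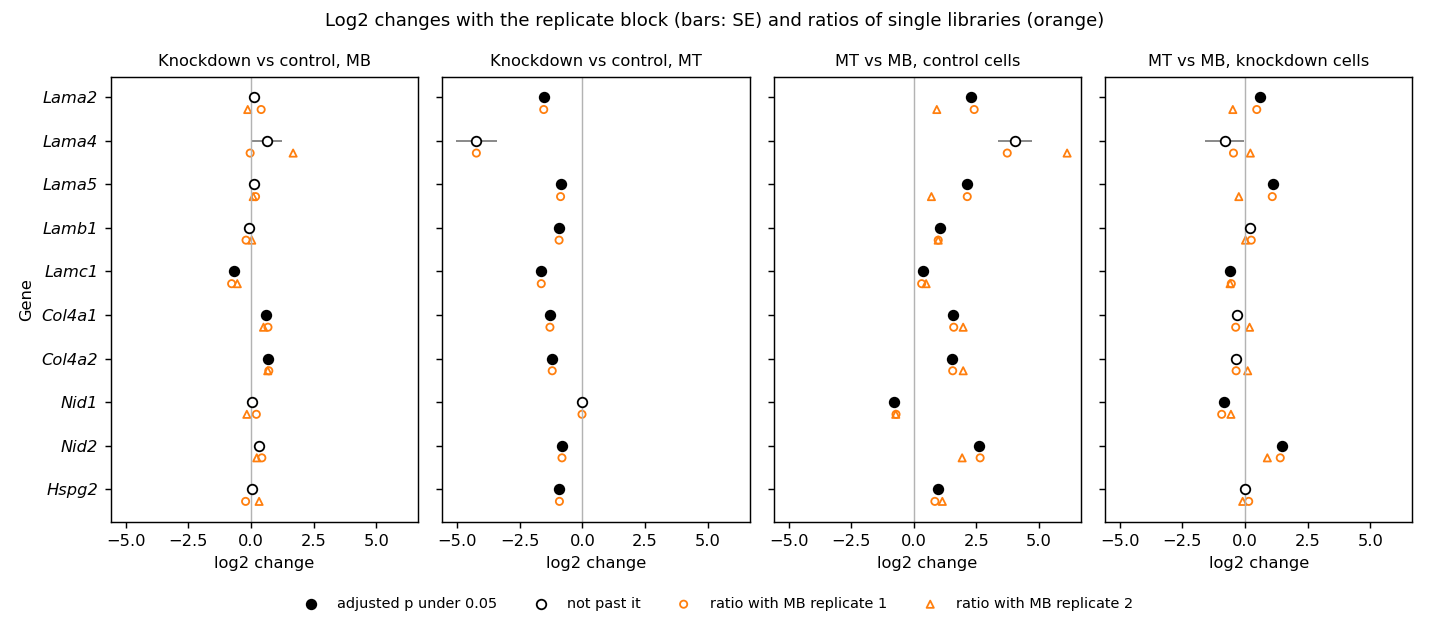
Log2 change of each gene in 4 contrasts: black symbols are the fit with the replicate block (filled, adjusted p under 0.05; bars, SE), orange symbols the ratio of single libraries, taken with MB replicate 1 (circles) or 2 (triangles), and in the MT panel the 1 ratio of the MT libraries. For MT against MB in control cells all genes but Nid1 lie right of 0 with either replicate, while in knockdown cells Lama2, Lama4, Lama5, Col4a1, Col4a2 and Hspg2 have their symbols on both sides of 0.

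Lama5, whose alpha 5 chain is found in many embryonic and epithelial basement membranes, was at 53.8 and 145 CPM in control MB, 61.0 and 154 in knockdown MB, 237 in control MT and 130 in knockdown MT. The replicates differed more than the treatments in MB, with replicate 2 higher by 1.43 (control) and 1.34 (knockdown) on the log2 scale. MT control was 4.40-fold above MB control replicate 1 and 1.63-fold above replicate 2, and Lama5 rose by 2.11 (log2, SE 0.12, adjusted p = 6.3e-07). With knockdown in MT it fell by 0.87 (SE 0.13, adjusted p = 0.00142). The rise of 1.11 between MB and MT knockdown cells rests on the pairing with replicate 1, since the MT library was 0.84 times MB knockdown replicate 2.

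Lama5 lies at chr2:180176373-180225859 (minus strand, GRCm38), and the 250 bases before its annotated start are shown because they hold no TATAAA but several GC boxes, GGGCGG or its reverse complement, in capitals. They span chr2:180225860-180226109 and are read on the strand of the gene (RefSeq, GRCm38.p6).
Lama5: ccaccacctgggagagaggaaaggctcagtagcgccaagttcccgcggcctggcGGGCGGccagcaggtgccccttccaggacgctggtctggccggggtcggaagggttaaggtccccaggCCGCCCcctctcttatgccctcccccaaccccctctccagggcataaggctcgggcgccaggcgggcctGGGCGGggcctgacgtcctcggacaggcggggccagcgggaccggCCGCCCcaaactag
The 4 matches lie 196, 128, 59 and 14 bases before the start. The letters CAGCTG, a form of the E box bound by MyoD, are not in the window from 250 bases before to 50 after the start. Other forms of the E box were not searched for, and the bases shown hold CAGGTG and its reverse complement CACCTG.

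Lama2 (chr10:26980036-27619758, minus strand) encodes the alpha 2 chain, and its level was 21.6 and 60.8 CPM in control MB, 28.6 and 55.6 in knockdown MB, 115 in control MT and 39.6 in knockdown MT. It shared the replicate pattern of Lama5, and the MT knockdown library lay between the replicates of MB. MT control was 5.33-fold and 1.89-fold above MB control replicates 1 and 2, and Lama2 rose by 2.27 (log2, SE 0.18, adjusted p = 3.78e-05). It fell by 1.54 with knockdown in MT (SE 0.19, adjusted p = 0.00137), where the knockdown library had 34.3% of the control level. Between MB and MT knockdown cells the block gives a rise of 0.60 (adjusted p = 0.0345), the first fit a value of -0.09, and the ratio to replicate 2 is 0.71. DESeq2 with the block does not call it (0.59, adjusted p = 0.0639).

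Lama4 (chr10:38965515-39110188, plus strand) encodes the alpha 4 chain, best known from the walls of blood vessels and from developing muscle. It was at 6.75 and 1.29 CPM in control MB, 6.59 and 4.13 in knockdown MB, 89.8 in control MT and 4.78 in knockdown MT. MT control stood 13.3-fold and 69.8-fold above the MB control replicates and 18.8-fold above MT knockdown, the widest differences among the 10 genes. MB replicate 2 stood against replicate 1 at -2.39 (log2) in control cells, and neither the change from MB to MT in control cells (4.05, SE 0.67, adjusted p = 0.0603) nor that with knockdown in MT (-4.23, SE 0.81, adjusted p = 0.121) passed in the fit with the block. DESeq2 without the block called both (adjusted p = 2.0e-05 and 0.00392), and so did DESeq2 with the block (4.13 and -4.28).

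The gamma 1 chain, encoded by Lamc1 (chr1:153218922-153332786, minus strand), is the gamma chain of most laminins. Its level was 258 and 228 CPM in control MB, 151 and 156 in knockdown MB, 321 in control MT and 103 in knockdown MT. Control and knockdown libraries did not overlap in MB, and MT knockdown was the lowest of the 6. Of all genes tested, 13.1% had both MB knockdown libraries below both MB controls. Lamc1 fell by 0.66 with knockdown in MB (log2, SE 0.10, adjusted p = 0.00596) and by 1.64 in MT (SE 0.15, adjusted p = 4.18e-05), and the difference between these effects was -0.98 (SE 0.17, adjusted p = 0.00591). In the first fit the same 3 values were -0.66, -1.64 and -0.98, with adjusted p-values of 1, 0.457 and 0.964. The change with differentiation was the smallest rise of the 8 in control cells (0.37, adjusted p = 0.0403), and DESeq2 with the block does not call it (0.41, adjusted p = 0.0699). In knockdown cells Lamc1 fell by 0.61 (adjusted p = 0.00708), with MT knockdown below both MB knockdown libraries.

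Lamb1 (chr12:31265234-31329644, plus strand), the gene of the beta 1 chain, was at 203 and 203 CPM in control MB, 177 and 207 in knockdown MB, 399 in control MT and 210 in knockdown MT. MT control stood apart, and the other 5 libraries lay within 177 to 210 CPM. Lamb1 rose by 1.03 from MB to MT in control cells (log2, SE 0.13, adjusted p = 0.000138) and fell by 0.93 with knockdown in MT (SE 0.14, adjusted p = 0.00156). Its knockdown effect in MB was -0.08 (SE 0.10, adjusted p = 0.743).

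Among the chains outside the 10 genes, Lama1 rose in control MT cells and fell with knockdown there, from 0.725 and 0.807 CPM in control MB to 11.7 in control MT and 5.16 in knockdown MT. In MB it went the other way, at 2.05 and 1.88 CPM in knockdown cells, and rose with knockdown by 1.36 (log2, adjusted p = 0.0158). Lamb3 was at 11.4 CPM in control MT and 5.55 in knockdown MT, where it fell (-1.04, adjusted p = 0.00675), and at 5.50 to 20.4 in MB. Lamb3 fell with knockdown in MB too (-0.876, adjusted p = 0.00857), and the difference between these effects was -0.164 (adjusted p = 0.745). Lamc3 was at 0.64 CPM in control MT and at most 0.0845 in the other libraries, so it passed the filter through that library alone and its difference is not counted here as a call. Lamb2, the beta 2 chain known from the neuromuscular junction, was at 136, 126, 160 and 137 CPM in MB, 172 in control MT and 168 in knockdown MT. Its knockdown effect in MT was -0.03 (log2, adjusted p = 0.887).

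Levels of different genes were compared as CPM per kilobase of the transcript with the longest coding sequence (GENCODE, GRCm38). Summed over the alpha chains they were 8.18 and 19.4 in control MB, 9.65 and 20.2 in knockdown MB, 48.9 in control MT and 16.8 in knockdown MT. The sum of the beta chains, 59.3 to 63.3 in MB, 102 in control MT and 67.2 in knockdown MT, stood above that of the alpha chains in every library.

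Lama5 made up 55.5% to 67.0% of the alpha sum in MB, 42.5% in control MT and 67.6% in knockdown MT. Lama2 held 27.5% to 32.7% in MB, 24.5% in control MT and 24.4% in knockdown MT. The share of Lama4 was 13.6% and 1.1% in control MB, 11.3% and 3.38% in knockdown MB, 30.4% in control MT and 4.69% in knockdown MT. With the union of all exons as the length, Lama4 has 20.4% and Lama5 57.0% of the alpha sum in control MT, so the shares depend on the length chosen. The ratio Lamb1 to Lamc1 per kilobase, 1.04 and 1.17 in control MB and 1.64 in control MT, was 1.54 and 1.75 in knockdown MB and 2.68 in knockdown MT. For Lamb2 to Lamc1 it was 0.712, 0.747 and 0.726 in the control libraries and 1.44, 1.19 and 2.21 in the knockdown libraries.

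**Figure D3:**
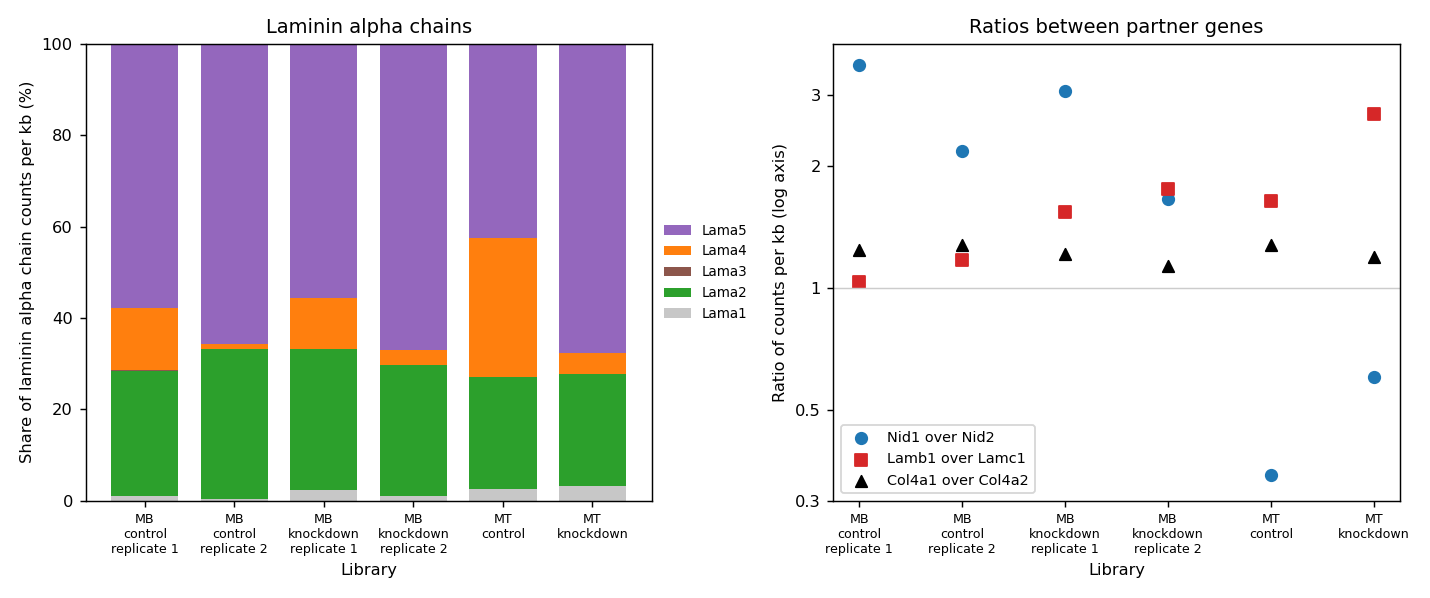
Left, share of each laminin alpha chain in the summed CPM per kilobase of the alpha chains (%), by library; right, ratio of CPM per kilobase (log axis) between partner genes, with 1 point per library and a line at 1. The orange Lama4 segment is 30.4% in control MT and 13.6% or less elsewhere; Col4a1 over Col4a2 stays between 1.14 and 1.28, while Nid1 over Nid2 goes from above 1 in MB to below 1 in MT.

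Col4a1 and Col4a2 encode the alpha 1 and alpha 2 chains of the main collagen IV protomer and are transcribed away from each other from a shared promoter. They lie at chr8:11198423-11312826 (Col4a1, minus strand) and chr8:11312805-11449287 (Col4a2, plus strand, GRCm38). In this annotation the 5′ ends overlap by 22 bases, chr8:11312805-11312826, shown on the strand of Col4a2 because they are the point from which both transcripts start, with a GC box in capitals (RefSeq, GRCm38.p6).
Col4a1 and Col4a2: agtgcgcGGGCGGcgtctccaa
Col4a1 was at 308 and 237 CPM in control MB, 493 and 336 in knockdown MB, 933 in control MT and 380 in knockdown MT. Col4a2 was at 242 and 181 CPM in control MB, 397 and 288 in knockdown MB, 713 in control MT and 310 in knockdown MT. The pair kept a ratio of 1.14 to 1.28 per kilobase in all 6 libraries.

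Both MB knockdown libraries were above both MB controls for Col4a1 and Col4a2, as for 13.5% of all genes tested. Col4a1 rose by 0.59 (log2, SE 0.10, adjusted p = 0.0104) and Col4a2 by 0.69 (SE 0.10, adjusted p = 0.00393) with knockdown in MB. The first fit gave 0.60 and 0.69, and without MB knockdown replicate 1 it gave 0.30 and 0.44. In MT the direction was the opposite: Col4a1 fell by 1.30 (SE 0.14, adjusted p = 0.000195) and Col4a2 by 1.20 (SE 0.14, adjusted p = 0.000228). The difference between these effects was -1.88 for Col4a1 (SE 0.18, adjusted p = 0.000116) and -1.89 for Col4a2 (SE 0.17, adjusted p = 8.13e-05). The first fit gave -1.90 for each, with adjusted p-values of 0.964 and 0.948, and DESeq2 without the block called both (adjusted p = 0.0229 and 0.0143).

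From MB to MT in control cells each rose by 1.55 (SE 0.13, adjusted p = 9.16e-06 for Col4a1; SE 0.13, adjusted p = 6.63e-06 for Col4a2), while in knockdown cells the changes were -0.33 (adjusted p = 0.082) and -0.35 (adjusted p = 0.0606). The MT knockdown library lay between the 2 MB knockdown libraries for both genes. Of the 4 other collagen IV chains only Col4a5, a chain of the other kinds of protomer, was above 1 CPM, at 21.6 and 75.8 CPM in control MB, 33.6 and 98.9 in knockdown MB, 85.5 in control MT and 101 in knockdown MT. Col4a5 rose with differentiation by 1.91 in control and 1.65 in knockdown cells, values that rest on the pairing with replicate 1, since both MT libraries are close to replicate 2 of their MB group. The first fit gave 0.81 (adjusted p = 0.637) and 0.61 (adjusted p = 0.788). Its knockdown effect in MT was 0.24 (adjusted p = 0.262). Its share of the collagen IV sum per kilobase was 3.64% to 4.94% in MB replicate 1 and MT control and 12.8% to 15.3% in MB replicate 2 and MT knockdown. Col4a3, Col4a4 and Col4a6 were at most 0.336 CPM in all 6 libraries.

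Nid2 (chr14:19751265-19811787, plus strand) and Nid1 (chr13:13437551-13512269, plus strand) encode the nidogens, glycoproteins that link the gamma 1 chain of laminin to collagen IV. Nid2 was at 139 and 229 CPM in control MB, 188 and 268 in knockdown MB, 874 in control MT and 497 in knockdown MT. Both MT libraries stood above all 4 MB libraries, and Nid2 rose with differentiation by 2.60 in control (log2, SE 0.13, adjusted p = 2.62e-07) and by 1.45 in knockdown cells (SE 0.13, adjusted p = 4.83e-05). With knockdown in MT it fell by 0.81 (SE 0.14, adjusted p = 0.00323). Reads that fall on exons of both Nid2 and Rtraf, on the opposite strand, may not have been counted.

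Nid1 went the other way. It was at 618 and 623 CPM in control MB, 716 and 555 in knockdown MB, 379 in control MT and 375 in knockdown MT. It fell with differentiation by 0.80 in control cells (SE 0.16, adjusted p = 0.00234) and by 0.84 in knockdown cells (SE 0.15, adjusted p = 0.00287), and control and knockdown overlapped in MB. The knockdown effect in MT was -0.01 (SE 0.16, adjusted p = 0.965), and its sign turns with scaling by total counts (0.12). Per kilobase, Nid1 was 3.56 and 2.18 times Nid2 in control MB, 3.05 and 1.65 times in knockdown MB, 0.347 times in control MT and 0.604 times in knockdown MT.

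Hspg2, the perlecan gene at chr4:137468769-137570630 (plus strand), was at 789 and 642 CPM in control MB, 680 and 804 in knockdown MB, 1418 in control MT and 752 in knockdown MT. The 4 MB libraries and MT knockdown lay within 642 to 804 CPM. Hspg2 rose by 0.97 from MB to MT in control cells (log2, SE 0.18, adjusted p = 0.00251) and fell by 0.92 with knockdown in MT (SE 0.19, adjusted p = 0.0137), while in knockdown cells the change with differentiation was 0.00 (SE 0.18, adjusted p = 0.991). Among the promoter windows matched, those of Hspg2 and Lama5 held the most GC boxes, 5 and 4, while those of Lama2, Col4a1 and Nid1 held 1 each. The 216 bases before the start of Hspg2, chr4:137468553-137468768, are shown as a second promoter without TATAAA and with repeated GC boxes (capitals, RefSeq, GRCm38.p6).
Hspg2: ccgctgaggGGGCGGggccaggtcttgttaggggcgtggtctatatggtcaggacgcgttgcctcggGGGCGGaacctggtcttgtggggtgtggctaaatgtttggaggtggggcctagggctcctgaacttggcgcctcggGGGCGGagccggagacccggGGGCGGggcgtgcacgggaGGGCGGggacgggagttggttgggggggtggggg

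Promoter windows, from 250 bases before to 50 after the RefSeq start, were matched for 7 of the 10 genes (Lama2, Lama5, Lamb1, Col4a1, Col4a2, Nid1 and Hspg2). All 7 held the GC box GGGCGG on either strand, as did 35.7% of 32851 windows in the table. For Lama2 and Col4a1 the only match lay after the RefSeq start. The Lama2 window, chr10:27616893-27617192, lies inside the gene interval given above, so it is not upstream of the start in that annotation. CCAAT was in the windows of Col4a1, Col4a2, Lamb1 and Nid1 and in 37.4% of all windows. CAGCTG was in none of the 7 and in 16.3% of all, and TATAAA in none and in 13.6%. Other forms of the E box, such as CAGGTG, were not searched for, so the 7 windows are not shown to lack E boxes. The windows of Col4a1 and Col4a2 overlap, so their matches are not separate. These are counts of letters in a short window and say nothing of binding.

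Some groups of genes that act with these chains were counted by list in the same fit. Of 15 other basement membrane components, 9 rose and 3 fell from MB to MT in control cells, against 22.3% and 22.6% of all genes tested. With knockdown in MT 8 fell and none rose, against 11.2% and 9.09%. Frem2, counted in both the 9 and the 8, was at 0.454 CPM in control MT and at most 0.0757 elsewhere, so it passed the filter through that library alone and its direction was fixed by it. Agrn, the agrin proteoglycan that binds laminin and dystroglycan, was at 61.0 and 48.7 CPM in control MB, 92.4 and 85.2 in knockdown MB, 351 in control MT and 206 in knockdown MT. Like the collagen IV pair, Agrn rose with knockdown in MB (0.70, adjusted p = 0.00408) and fell with it in MT (-0.77, adjusted p = 0.00367). Fras1, a matrix protein of embryonic epithelia, was at 0.353 to 0.557 CPM in MB, 10.8 in control MT and 0.413 in knockdown MT. Sparc, a collagen-binding matrix protein, was at 7011 CPM in control MT and 6031 in knockdown MT, and did not pass (-0.22, adjusted p = 0.416). Ntn4, a netrin with laminin-like domains, was at 2.16 to 3.99 CPM in MB, 11.4 in control MT and 2.45 in knockdown MT.

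Of 9 receptors that passed the filter, 6 rose and 1 fell with differentiation in control cells (66.7% and 11.1%, against 22.3% and 22.6% of all genes). With knockdown in MT 4 fell and 1 rose (44.4% and 11.1%, against 11.2% and 9.09%), so the share that rose is near that of all genes. Dag1, the gene of dystroglycan, was at 152, 198, 128 and 183 CPM in MB, 814 in control MT and 169 in knockdown MT, where it fell by 2.27 (adjusted p = 3.55e-06). Itga7, the integrin alpha chain that pairs with beta 1 as the muscle laminin receptor, was at 147, 300, 73.0 and 248 CPM in MB, 713 in control MT and 190 in knockdown MT. Bcam, a laminin alpha 5 receptor, was at 26.0 CPM in control MT and 1.86 in knockdown MT. Itga3, another laminin-binding integrin chain, was the receptor that rose with knockdown in MT, from 41.5 to 135 CPM, and it rose in MB too (0.64, adjusted p = 0.0052).

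Of 15 tested genes for collagen folding, modification and crosslinking, 10 rose and 2 fell with differentiation in control cells (66.7% and 13.3%, against 22.3% and 22.6% of all genes). With knockdown in MT 5 fell and 1 rose (33.3% and 6.67%, against 11.2% and 9.09%). P4ha1 and P4ha2, the catalytic subunits of prolyl 4-hydroxylase, had 747 and 323 CPM in control MT against 295 and 147 in knockdown MT. Pxdn, the peroxidase that crosslinks collagen IV, was at 206 and 180 CPM in these libraries and did not pass. Nor did P3h1, a prolyl 3-hydroxylase of collagens, at 120.4 and 106.8 CPM. Of 9 proteases and inhibitors that act on matrix, 7 rose and 2 fell with differentiation in control cells (77.8% and 22.2%), the share that fell being that of all genes (22.6%). With knockdown in MT 5 fell (55.6%, against 11.2% of all genes) and none rose. Mmp2, a gelatinase that cleaves collagen IV, was at 625 CPM in control MT and 349 in knockdown MT, and its inhibitor Timp2 at 1545 and 931. Mmp14, a membrane-bound metalloproteinase, and Bmp1, a procollagen protease, did not pass for the knockdown in MT (-0.37, adjusted p = 0.0795, and -0.03, adjusted p = 0.910).

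**Figure D4:**
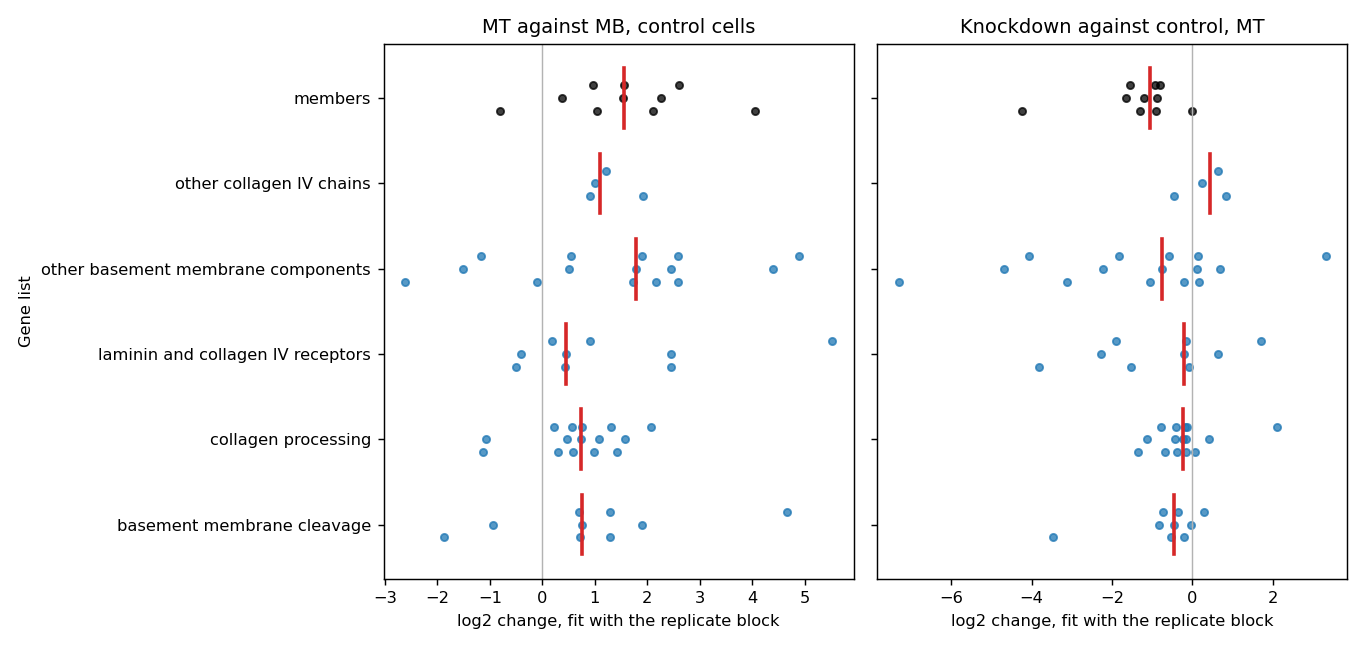
Log2 change in the fit with the replicate block, for MT against MB in control cells (left) and knockdown against control in MT (right), with 1 point per tested gene and a red line at the median of each list. The 10 basement membrane genes (black) have medians of 1.55 and -1.07. Of the 4 other collagen IV chains 3 were at most 0.336 CPM in all libraries, so the place of that list rests on low counts.

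Markers of myotubes, like the basement membrane genes other than Nid1, were highest in control MT. The summed level of 8 myotube markers (Myog, Mymk, Myh3, Acta1, Ckm, Tnnt3, Tnni2, Casq2) was 12.3 and 133 CPM in control MB, 12.2 and 76.2 in knockdown MB, 7224 in control MT and 111 in knockdown MT. The MT knockdown library was thus within the range of MB for this sum, and its part in the lower levels of the 9 genes was not tested. The sum was also higher in replicate 2 than in replicate 1 of MB, as were Lama2, Lama5 and Nid2. Lama4, Col4a1 and Col4a2 went the other way, lower in replicate 2 in both control and knockdown cells. Summed cell cycle markers were 2022 to 2651 CPM in MB and 1056 and 1118 in the 2 MT libraries. Of 7 endothelial, 5 Schwann, 5 macrophage and 4 epithelial markers, which mark other cells that make basement membrane or could contaminate a culture, Tie1, Sox10 and Adgre1 had no count in any library. The sums were at most 5.37 CPM for endothelial, 5.73 for macrophage and 0.372 for epithelial markers. The Schwann sum was 3.95 to 6.61 CPM but 68.7 in control MT, of which Erbb3 made up 66.2. Summed smooth muscle markers were 3321 and 1423 CPM in control MB, 6232 and 2109 in knockdown MB, 5748 in control MT and 5535 in knockdown MT, mostly Acta2, and Myh11 was at most 0.258 CPM. The 6 fibroblast markers summed to 219.6 to 379 CPM in MB, 586 in control MT and 439 in knockdown MT, with Lum at most 0.268 CPM. The part of these sums in the collagen IV levels was not tested. Of 6 myoblast markers, which the cell line should express, 5 averaged over 1 CPM and Pax7 was at most 0.31; their sum was 605 and 1030 CPM in control MB, 482 and 1131 in knockdown MB, 1913 in control MT and 911 in knockdown MT.

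Likeness over the 6 libraries, as Pearson's r of log2(CPM + 1) among 9732 other genes with a mean of at least 10 CPM, is a description of libraries that share their groups. Col4a2 was the gene most like Col4a1 (r = 0.996), followed by Plod1 (0.995), a lysyl hydroxylase of collagens, and Kctd5 (0.990). Lama4 ranked 40th for Col4a1 and Nid1 6422nd (r = -0.515). For Lamc1 the nearest genes were Sepsecs (0.985), E2f4 (0.985) and Aarsd1 (0.983), and the closest of the other 9 basement membrane genes was Lamb1 at rank 816 (r = 0.605).

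The counts of some of these genes may include other transcripts or lack reads of their own, as the strand setting of the counting is not given in the labels. Nid2 shares 437 exonic bases with Rtraf on the opposite strand, which has a row of its own and was at 113 to 149 CPM. Reads in the shared bases may have been left out as ambiguous, so the Nid2 level is uncertain. Lama2 and Nid1 share 631 and 143 exonic bases with the antisense genes Gm48084 and Gm48682, which have no rows of their own in the count tables. Col4a2 shares 43 with the antisense gene Gm15419, which was at most 0.0516 CPM, and 22 with Col4a1.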

How the data were processed

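Per the submitters' processing notes, reads were handled with TopHat2 2.0.11 and HTSeq on mm9, and the authors deposited 1 table of raw counts per library. Rows that name no gene (no feature, 5.18% to 8.07% of all rows' counts; ambiguous, 2.81% to 2.93%) were left out. Of the identifiers, 32919 have a symbol, with 99.04% of counts. Counts were tested with edgeR 4.0.16 (R 4.3.3): filterByExpr by group, TMM factors of 0.972 to 1.07, robust quasi-likelihood fits on all 6 libraries with 1 mean per group, and Benjamini-Hochberg adjustment. The fit with a replicate block was an alternative. Reporting its calls was decided with earlier results of these data known, as were the members and all gene lists. Scripts were tested on simulated data. Alternatives were DESeq2 1.42.0, total count scaling, no filter, and leaving out each MB library. The 10 genes are named throughout. From each list up to 4 genes with the smallest p in the MT knockdown or control differentiation contrast are named. Lamb3 was named after its values were seen. List counts for the other laminin chains and for dystroglycan glycosylation are not reported here. Replicate libraries differed by more than sampling noise, with a chi-square per degree of freedom of 114.1 and 151. Gene coordinates are from a GRCm38 annotation, not from the build of the files.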

Additional observations from a re-analysis of the deposited data

Results flagged for a closer look

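Col4a1 and Col4a2 had knockdown effects of opposite direction in MB and MT. Both MB knockdown libraries were above both MB controls, and the MT knockdown library was below the MT control, for each of them. Without MB knockdown replicate 1 the MB effect in the fit without a block went from 0.60 to 0.30 for Col4a1 and from 0.69 to 0.44 for Col4a2. The difference between the effects was -1.90 (log2, SE 0.46) for Col4a1 and -1.90 (SE 0.43) for Col4a2 in the edgeR fit without a block, and the test of this difference did not pass there (adjusted p = 0.964 and 0.948). It passed in the fit with the replicate block and in DESeq2. The genes overlap at their starts and follow each other across libraries, so they are not separate observations.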

How the results depend on the processing

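With the first fit, 0 genes were called in each contrast; total count scaling gave 0 too. Genes and, after the slash, members of the 10 called are given in the order knockdown effect of MB, that of MT, control differentiation, knockdown-cell differentiation, and difference of knockdown effects. The replicate block gave 632/3, 3344/8, 7398/9, 5446/5 and 1722/8. Chosen after seeing the data, the replicate block with total count scaling gave 509/3, 3715/8, 7384/10, 5241/5 and 1764/7, and DESeq2 with the replicate block 329/3, 1542/9, 4291/9, 2918/4 and 958/9. Among its changes against the block in edgeR, DESeq2 with the block adds Lama4 for the knockdown in MT and for control differentiation. It loses Lamc1 for control differentiation (adjusted p = 0.0699) and Lama2 for knockdown-cell differentiation (adjusted p = 0.0639). DESeq2 gave 52/0, 368/3, 2384/6, 843/0 and 166/3. With no filter on low counts 582 genes and 2 of the 10 (Col4a1, Col4a2) were called for control differentiation, and 2 and 0 for knockdown cells. Leaving out 1 MB library gave 0 to 141 genes for control differentiation (136 without MB knockdown replicate 1, 141 without replicate 2) and 0 elsewhere. The replicate block could not be fitted without an MB library, for lack of residual degrees of freedom. Labels alone do not establish the pairing.

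Of 500 log2 values of the 10 genes under these settings, 27 changed sign. Leaving out 1 MB library, the knockdown effect of MB ran from 0.30 to 0.85 for Col4a1, 0.44 to 0.92 for Col4a2, -0.53 to 0.96 for Lama2, -0.33 to 2.06 for Lama4, -0.70 to 1.00 for Lama5, -0.20 to 0.030 for Lamb1, -0.16 to 0.21 for Nid1, -0.0048 to 0.71 for Nid2 and -0.091 to 0.21 for Hspg2. Differentiation of knockdown cells ran from -0.49 to 0.47 for Lama2, -0.46 to 0.21 for Lama4, -0.25 to 1.09 for Lama5, -0.38 to 0.18 for Col4a1, -0.36 to 0.10 for Col4a2 and -0.096 to 0.14 for Hspg2, and the difference of knockdown effects from -0.22 to 0.15 for Nid1, -2.51 to -1.01 for Lama2 and -1.88 to -0.17 for Lama5. With total counts Nid1 was 0.12 for the knockdown effect of MT, with or without the block, and 0.055 (0.069 with the block) for the difference of effects. In knockdown-cell differentiation Lama2 was 0.011 with total counts, 0.60 with the replicate block, 0.68 with block and total counts and 0.59 with DESeq2 and the block, and Hspg2 was -0.024 without the filter and -0.000281 with DESeq2 and the block. The cause was not tested. The lowest level, Lama4 at 1.29 CPM, is above the 0.0738 CPM that 3 counts give in that library, so depth limits none of the 10. The limits are the single MT libraries and the 1 residual degree of freedom of the replicate block.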
